A study of Mus musculus with 36 samples.

Results

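The genes described here each gave at least 1 array signal that was low in mouse hearts after 6 weeks of Akt1 transgene expression. The same signal was higher both before induction and after the transgene had been switched off again. Other signals of the same gene did not always follow. These genes were read on the second array of a 2-chip set, Affymetrix chip 430B, and their symbols do not occur on the first, chip 430A. A probe set, the group of short oligonucleotides that measures a transcript, was a member if its platform annotation gave 1 symbol and its mean signal over the 18 hearts was at least 24.5. Every heart after 6 weeks on also had to lie below every control heart and every heart after 2 weeks off, and log2(group mean + 12) had to be lower by 0.6 or more in both comparisons. Orai3, which met these criteria, and Kcnip2, whose symbol is also on chip 430A, were left out. This gave 135 probe sets of 130 genes, of 6979 probe sets that could have met the criteria and of 22575 on the chip. The mirrored rule, with hearts after 6 weeks on highest, held for 132 probe sets, so the rule took 1.93% of the candidates downward and its mirror 1.89% upward. Because the members were chosen by these signals, their differences between 6 weeks on and either of the other groups are given as a description and carry no test.

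All mice were males, by the labels, that carried 2 transgenes: Tet-myrAkt1, an activated Akt1 under a tetracycline-responsive promoter, and a tTA driver on the α-myosin heavy chain promoter, which is active in heart muscle cells. The labels write this genotype as Tet-myrAkt1/?MHC-tTA, with a question mark where the Greek letter belongs. The 5 groups were control hearts before induction (n = 4, age 12 weeks), hearts after 2 weeks on (n = 4, 14 weeks), hearts after 2 weeks on and 2 days off (n = 4, 14 weeks and 2 days), hearts after 6 weeks on (n = 3, 18 weeks), and hearts after 6 weeks on and 2 weeks off (n = 3, 20 weeks). Each heart came from a separate mouse, by the series' design, and was hybridised to both chips, which gives 36 arrays. No group without induction was sampled at the later ages, so age and time on the transgene cannot be told apart. RNA came from whole heart tissue, in which fewer cells of a type and less RNA per cell cannot be told apart.

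Akt1 is the kinase that carries signals from insulin, growth factors and PI3-kinase to protein synthesis, glucose use and cell growth, and it holds FoxO transcription factors out of the nucleus. In heart muscle, FoxO factors activate genes of protein breakdown, among them muscle ubiquitin ligases, and Akt activity enlarges the cells. The driver used here is of the type that a tetracycline-class drug silences, so that the same heart can pass through an induced and a repressed state.

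The transgene's switching was visible in 1 of the 4 Akt1 probe sets. That probe set of chip 430A averaged 548 ± 69.7 before induction, 2878 ± 645 after 2 weeks on, 718 ± 21.8 after 2 days off, 2365 ± 542 after 6 weeks on and 753 ± 106 after 2 weeks off (SD, n = 4, 4, 4, 3 and 3). The other Akt1 probe sets did not follow these steps. Array medians on chip 430B lay between 60.9 and 78.9. The Actb 3′ to 5′ signal ratio, a sign of RNA integrity, averaged 1.02 ± 0.05 after 2 days off against 1.47 ± 0.29 after 2 weeks on (n = 4 each). After 6 weeks on it reached 4.20 in heart 3. Leaving that heart out, the median member differed from control by -1.04 instead of -1.07 (log2), and 120 of the 135 probe sets were still lower by the limit in both comparisons. Leaving out heart 1 or heart 2 of that group instead kept 125 and 127 members. Heart 3 was the lowest of its group for 54 members. The members were chosen with all these hearts included, so such counts were largely set by the rule and cannot show how far heart 3 shaped the membership. Control hearts 3 and 4 gave 2518 and 2170.2 at an Xist probe set, against 4.40 to 92.8 in the other 16 hearts, although all are labelled male.

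Averaged over the members, the hearts formed 3 levels. The mean of log2(signal + 12) over the 135 probe sets, set against the control mean, was -0.42 ± 0.10 after 2 weeks on, 0.02 ± 0.04 after 2 days off, -1.15 ± 0.07 after 6 weeks on and 0.01 ± 0.12 after 2 weeks off (SD over hearts). The 4 hearts after 2 days off lay between -0.02 and 0.07, against -0.50 to -0.27 in the 4 hearts after 2 weeks on, so these groups did not overlap. At 2 weeks on the median member stood at 27.0% of the difference seen at 6 weeks. This share was under 25% for 66 probe sets and 75% or more for 17. Its divisor is the difference that chose the members, so these shares depend on that choice and are descriptions. In 8 genes (Mylk4, Ifit1bl1, Ccbe1, Shld1, Lrrc75b, Agpat2, Pggt1b and Ldhd) the mean at 2 weeks on was already below that at 6 weeks on.

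**Figure D1:**
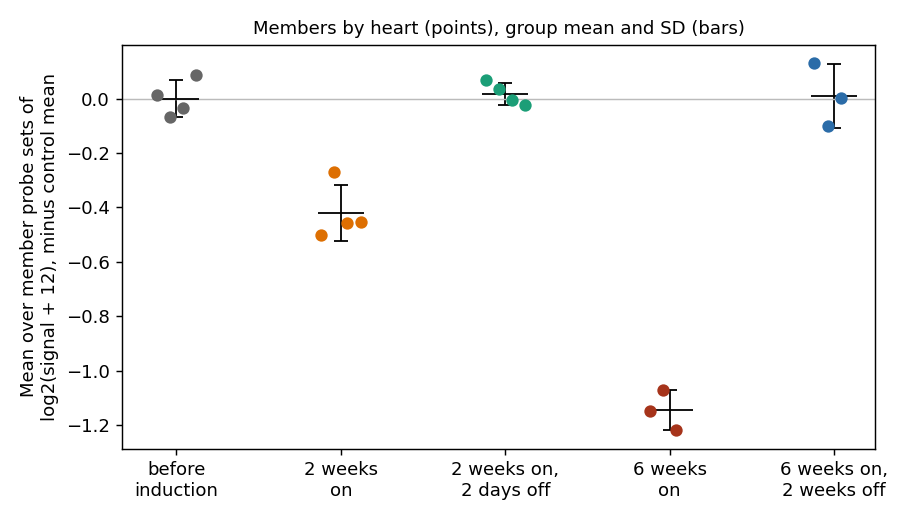
Each point is a heart: the mean over 135 member probe sets of log2(signal + 12), minus the control mean (vertical axis), for the 5 groups in order of treatment (horizontal axis). Bars give the group mean and SD. Hearts after 2 days off lay between -0.02 and 0.07, against -0.50 to -0.27 after 2 weeks on. The lowest group, 6 weeks on, was used to choose the members.

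The comparison that the rule did not use was the first repression: 2 days off against 2 weeks on. Of the 135 probe sets, 23 rose and 0 fell at an adjusted p under 0.05 in limma, fitted over all 17519 kept probe sets of the chip, of which 1.57% rose and 0.793% fell. At an unadjusted p under 0.05 the counts were 47 higher and 2 lower, Sirpb1a and 9430038I01Rik being the lower ones. All 4 hearts after 2 days off lay above all 4 after 2 weeks on for 35 members (6.20% of kept probe sets) and below them for 2 (6.82%). The fitted change was positive for 108 members, which 44.0% of kept probe sets were. Its median was 0.33 over members and -0.06 over all kept probe sets (log2). With the Actb ratio of each heart as a covariate, 17 members rose.

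**Figure D2:**
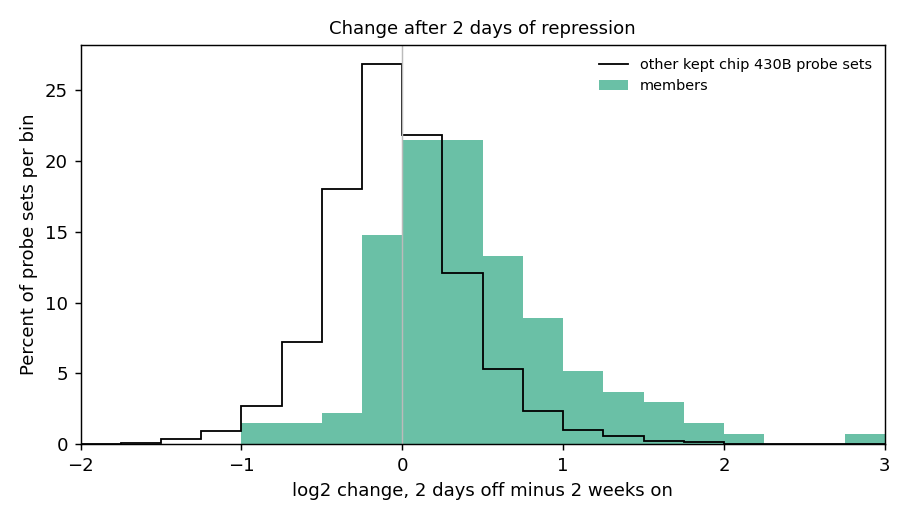
Horizontal axis: log2 change between 2 days off and 2 weeks on, in bins of 0.25, drawn from -2 to 3. Vertical axis: percent of probe sets in each bin, for the 135 members (filled bars) and the other kept chip 430B probe sets (outline). The members' median was 0.33 and that of all kept probe sets -0.06.

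The other comparisons share hearts with the rule and are descriptions. After 2 weeks on, 16 members were below control at an adjusted p under 0.05 (0.816% of kept probe sets) and 0 above it (1.22%), with 1 above it at an unadjusted p under 0.05. For 28 members every heart after 2 weeks on lay below every control heart (3.94%). Without the 2 control hearts with Xist signal the 16 became 6. Of the 16, 12 were also among the 23 that rose after 2 days off, while 108 probe sets were in neither count. Both counts use the same hearts after 2 weeks on, so this overlap is partly built in. Between 6 weeks on and 2 weeks on, 35 members were lower (1.03%) and 0 higher (0.776%; 2 at an unadjusted p under 0.05). For 73 members every heart after 6 weeks on lay below every heart after 2 weeks on (6.84%).

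The median difference from control after 2 weeks off was 0.02 (log2) over the members. Gm19277 was higher, by 1.31 (adjusted p = 0.021; 0.782% of kept probe sets higher), and Mylk4 was lower, by -0.99 (adjusted p = 0.027; 0.930% lower). Of the members, 5 had all hearts after 2 weeks off above all control hearts (5.01%) and 8 had them below (6.97%).

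The members are described by role, in groups made after they were seen, so the groups' counts carry no test. They stand beside 23 of 135 members that rose after 2 days off and 108 of 135 with a positive fitted change, and beside 1.57% and 44.0% of all kept probe sets.

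Among genes of contraction and muscle cell contacts, 4 of 8 rose after 2 days off: Mylk4, Mylk3, Lrtm1 and Trim63. All 8 had a positive fitted change, with a median of 0.73. Mylk3 is the cardiac myosin light chain kinase, which phosphorylates the regulatory light chain of the thick filament, and Mylk4 is a related kinase of the same family. Trim63 (MuRF1) is a ubiquitin ligase that marks sarcomere proteins for breakdown and a known FoxO target. Lrtm1 is a leucine-rich repeat membrane protein. The promoters of all 4 genes that rose in this group are shown. The sequences are RefSeq promoters on GRCm38.p6, 250 bases before to 50 after the annotated start, 5′ to 3′ on the gene's strand, with capitals marking motif matches. They lie at chr14:29017958-29018257 (plus strand) for Lrtm1, chr4:134314870-134315169 (plus strand) for Trim63, chr8:85380992-85381291 (minus strand) for Mylk3 and chr13:32783915-32784214 (minus strand) for Mylk4.
Lrtm1: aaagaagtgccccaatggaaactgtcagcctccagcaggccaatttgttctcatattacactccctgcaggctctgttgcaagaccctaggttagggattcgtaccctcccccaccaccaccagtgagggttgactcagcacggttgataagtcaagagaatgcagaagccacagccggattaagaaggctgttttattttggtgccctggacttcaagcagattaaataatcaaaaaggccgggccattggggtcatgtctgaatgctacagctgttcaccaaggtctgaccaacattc
Trim63: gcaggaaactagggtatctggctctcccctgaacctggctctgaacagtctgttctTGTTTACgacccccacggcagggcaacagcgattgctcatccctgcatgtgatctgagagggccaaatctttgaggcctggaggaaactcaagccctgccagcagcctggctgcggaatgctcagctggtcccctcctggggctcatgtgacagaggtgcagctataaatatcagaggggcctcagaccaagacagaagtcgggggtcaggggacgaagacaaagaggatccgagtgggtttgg
Mylk3: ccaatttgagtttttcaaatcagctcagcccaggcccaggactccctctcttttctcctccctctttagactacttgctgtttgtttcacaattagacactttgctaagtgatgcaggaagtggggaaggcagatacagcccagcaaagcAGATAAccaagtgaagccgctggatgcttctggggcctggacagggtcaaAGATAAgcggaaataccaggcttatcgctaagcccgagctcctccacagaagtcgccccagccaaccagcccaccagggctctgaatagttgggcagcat
Mylk4: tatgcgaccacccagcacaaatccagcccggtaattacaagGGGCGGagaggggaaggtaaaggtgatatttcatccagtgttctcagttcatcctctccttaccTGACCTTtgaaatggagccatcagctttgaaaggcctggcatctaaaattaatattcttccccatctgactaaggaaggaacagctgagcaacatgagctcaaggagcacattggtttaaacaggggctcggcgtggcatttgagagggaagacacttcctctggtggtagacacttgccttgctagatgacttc

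The Lrtm1 promoter holds none of the 7 motifs searched and has no capitals. In the Trim63 promoter the capitals mark a FoxO core (GTAAACA, here on the opposite strand) that begins 194 bases before the start. The Mylk3 promoter shown holds the GATA motif AGATAA at 100 and 50 bases before the start, and the second annotated Mylk3 promoter holds none of the 7 motifs searched. In Mylk4 an SP/KLF box (GGGCGG) begins at 209 and an ERR core (AAGGTCA, opposite strand) at 145 bases before the start. None of these matches overlap one another. Both strands of 112 promoters of 92 member genes were searched, and of all 32851 promoters in the table, and alternative promoters of a gene can share sequence. The FoxO core was in 5.36% of member promoters and 3.65% of all, the ERR core in 5.36% and 4.72%, GATA in 12.5% and 11.2%, the E-box CACGTG in 9.82% and 7.15%, the MEF2 core TAAAAATA in 3.57% and 2.72%, the CArG box in 2.68% and 1.63%, and the SP/KLF box in 50.9% and 35.7%. A match is only a run of letters in this window.

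Mylk3 signals were 2735, 1540.1, 2557 and 2403 before induction, 1114, 935, 1159.6 and 847 after 2 weeks on, 2129, 1841, 1786 and 1959 after 2 days off, 473, 629.5 and 528 after 6 weeks on and 2213, 1544 and 1777 after 2 weeks off. Hearts after 6 weeks on were lowest and those after 2 days off lay above all hearts after 2 weeks on (log2 change 0.93 ± 0.17, standard error, adjusted p = 0.00482). Mylk4 gave 901, 1071, 1203 and 1271 before induction, 182, 157, 181 and 105 after 2 weeks on, 569, 436, 588 and 537 after 2 days off, 139, 210.1 and 302 after 6 weeks on and 671, 463 and 533 after 2 weeks off. It rose after 2 days off without overlap (log2 change 1.71 ± 0.20, standard error, adjusted p = 7.35e-05), yet no heart of either repressed group reached the lowest control heart.

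Trim63 read 2483, 2032, 2029 and 2288 before induction, 1348, 2005, 1645 and 1785 after 2 weeks on, 2827, 3259, 3102 and 3249 after 2 days off, 1359.8, 1247 and 1338 after 6 weeks on and 4048, 2385 and 3289 after 2 weeks off. After 2 days off it rose (log2 change 0.88 ± 0.16, standard error, adjusted p = 0.0037) and all 4 hearts exceeded every control heart. Lrtm1 read 1039.8, 1033, 639 and 908 before induction, 302, 789.7, 523 and 454 after 2 weeks on, 2248, 2219.7, 1736 and 2686 after 2 days off, 608, 604 and 259 after 6 weeks on and 949, 1534 and 2355 after 2 weeks off. Its 4 hearts after 2 days off were above all other hearts, except that 1 heart after 2 weeks off lay among them (log2 change 2.14 ± 0.30, standard error, adjusted p = 0.000415). Another Lrtm1 probe set differed from control by 0.07 after 6 weeks on.

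The remaining 4 genes of this group did not pass the test after 2 days off. Ctnna3, the αT-catenin of the intercalated disc, differed by 0.59, and a further Ctnna3 probe set on the chip was also lower after 6 weeks on than in control hearts, by -0.45. Smco1 differed by 0.37, Dhrs7c, a dehydrogenase of the sarcoplasmic reticulum, by 0.29, and Lmod3, a leiomodin that nucleates thin filaments, by 0.18. Against control, the 8 genes differed by -2.29 (Mylk4) to -0.74 (Trim63) after 6 weeks on.

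**Figure D3:**
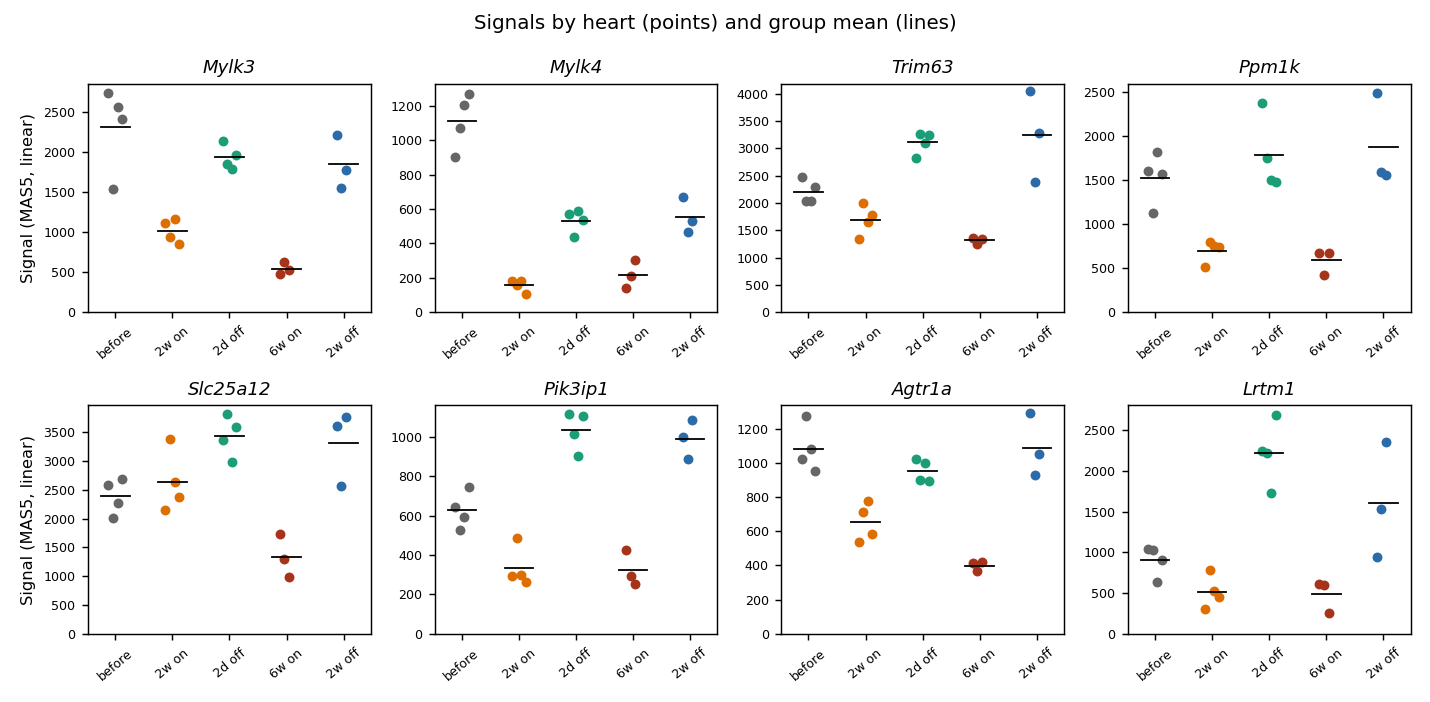
Each panel is a member; each point is the linear MAS5 signal of a heart (vertical axis, from 0), each line a group mean, and the 5 groups run in order of treatment (horizontal axis). Mylk4 stayed below control after both repressions, while Pik3ip1, Trim63 and Lrtm1 after 2 days off lay above every control heart. Slc25a12 was not below control after 2 weeks on.

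Of 15 probe sets of receptors, kinases and signalling adaptors, 5 rose after 2 days off: Pik3ip1, Cnksr3, Tbc1d10c, Fnip2 and Agtr1a. The group's median change was 0.41. Pik3ip1 binds the catalytic subunit of PI3-kinase and lowers its activity, upstream of Akt. Its signals were 646, 525, 591 and 747 before induction, 292, 488, 298 and 265 after 2 weeks on, 1116, 1016, 900.5 and 1107 after 2 days off, 425, 291 and 254 after 6 weeks on and 997, 889.6 and 1085 after 2 weeks off. All 4 hearts after 2 days off exceeded every control heart (log2 change 1.63 ± 0.18, standard error, adjusted p = 3.11e-05). The other, brighter Pik3ip1 probe set was not low after 6 weeks on: it averaged 1297 after 6 weeks on and 1168 in control hearts, a difference of 0.15.

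Agtr1a encodes the type 1a receptor of angiotensin II, a hormone that raises blood pressure and promotes cardiac growth. It read 1023, 1273, 1079 and 954 before induction, 538, 715, 777 and 585 after 2 weeks on, 1024, 902, 999 and 892 after 2 days off, 413, 365 and 418 after 6 weeks on and 1289, 926 and 1049.6 after 2 weeks off. The hearts after 6 weeks on were the lowest, and those after 2 days off rose without overlap with 2 weeks on (log2 change 0.55 ± 0.14, standard error, adjusted p = 0.0371). Cnksr3, a scaffold protein of the connector enhancer of Ras family, read 473, 441, 425 and 389.9 before induction, 266, 333, 280.2 and 287 after 2 weeks on, 623, 448, 526 and 539.8 after 2 days off, 256, 249 and 268 after 6 weeks on and 693, 547 and 507 after 2 weeks off. After 2 days off 3 of the 4 hearts lay above every control heart, and all 4 above those after 2 weeks on (log2 change 0.84 ± 0.13, standard error, adjusted p = 0.00114).

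Fnip2, a partner of folliculin and of the energy sensor AMPK, rose by 0.76, adjusted p = 0.016 (log2). Tbc1d10c, an inhibitor of calcineurin and Ras known as carabin, rose by 1.10, adjusted p = 0.00746. The genes of this group that did not pass were Plekhm3, Mcc, Akap5 (an anchor of protein kinase A), Plxnb1 (a semaphorin receptor, 2 probe sets), Arhgef15, Ppip5k1, Tlk1, Dyrk2 and Dlgap2. Their differences after 2 days off ran from -0.43 (Mcc) to 0.69 (Ppip5k1). The 15 probe sets differed from control by -1.60 to -0.72 after 6 weeks on.

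Mitochondrial genes gave 14 probe sets of 12 genes, of which Ppm1k and Ldhd rose after 2 days off; 12 of the 14 had a positive change and the median was 0.43. Ppm1k is the phosphatase that activates the branched-chain ketoacid dehydrogenase. Its signals were 1597, 1127, 1809.5 and 1564 before induction, 508, 796, 744 and 739 after 2 weeks on, 2374, 1748, 1501 and 1479.8 after 2 days off, 670.4, 423 and 665 after 6 weeks on and 2487, 1587 and 1553 after 2 weeks off. The 4 hearts after 2 days off and the 4 after 2 weeks on did not overlap (log2 change 1.33 ± 0.21, standard error, adjusted p = 0.00116). Ldhd, the D-lactate dehydrogenase, read 325, 194, 272 and 233 after 2 days off, against 140.3, 113, 33.3 and 119 after 2 weeks on (log2 change 1.36 ± 0.26, standard error, adjusted p = 0.00746).

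Slc25a12, an aspartate-glutamate carrier of the malate-aspartate shuttle, was the brightest member. It gave 2590.4, 2017, 2277 and 2693 before induction, 2155, 3373, 2633 and 2367 after 2 weeks on, 3356, 3821, 2972 and 3580.0 after 2 days off, 1726, 1299 and 990.4 after 6 weeks on and 3599, 2565 and 3759 after 2 weeks off. Its hearts after 2 weeks on overlapped control, and the change after 2 days off did not pass (log2 change 0.40 ± 0.18, standard error, adjusted p = 0.285). Its 2 other kept probe sets, both dimmer, differed from control by 0.22 and 0.01 after 6 weeks on. Nadk2, the mitochondrial NAD kinase, read 1190.4, 1261, 1465 and 1249.8 before induction, 486, 1041, 774 and 696 after 2 weeks on, 1430.3, 1809, 1098 and 1258 after 2 days off, 508, 407 and 167 after 6 weeks on and 1851, 833 and 1435 after 2 weeks off. Heart 3 after 6 weeks on, with the high Actb ratio, was its lowest, and the change after 2 days off did not pass (0.92, adjusted p = 0.0997).

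The other mitochondrial members did not pass after 2 days off. They were Sirt5 (a desuccinylase, 0.28), Acad12 (an acyl-CoA dehydrogenase, 0.66), Timm21 (inner membrane import, 0.46), Nubpl (assembly of complex I, 0.49), Nsun3 and Mettl15 (RNA methyltransferases, 0.26 and 0.23), Cars2 (cysteinyl-tRNA synthetase, -0.33) and Osgepl1 (a tRNA-modifying enzyme). Osgepl1 had 3 member probe sets, which differed from control by -1.75, -1.05 and -0.72 after 6 weeks on. The first of them read 58.1, 111, 107 and 162 before induction, 75.9, 62.3, 102 and 90.8 after 2 weeks on, 99.4, 115, 119 and 29.3 after 2 days off, 19.7, 44.9 and 7.50 after 6 weeks on and 77.5, 136 and 109 after 2 weeks off, near the lower end of the signals, and its 4 hearts after 2 days off straddled those after 2 weeks on.

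Ppm1k belongs to the breakdown of branched-chain amino acids, in which transaminase, ketoacid dehydrogenase and acyl-CoA enzymes convert leucine, isoleucine and valine to acetyl-CoA, propionyl-CoA and succinyl-CoA. Of 19 genes of this pathway and of propionate breakdown measured on either chip, 10 rose and 0 fell after 2 days off, Ppm1k included; over 14650 genes 5.23% rose and 5.37% fell. The list's median change was 0.35, against -0.0014 over all genes, and the counts were 11 and 7 higher, with 0 lower, after quantile normalisation and after scaling to a common median. Bcat2, the mitochondrial transaminase, changed by 1.43, adjusted p = 0.00849, and Bckdhb, a subunit of the dehydrogenase, by 0.39, adjusted p = 0.0263. Ivd, the isovaleryl-CoA dehydrogenase, averaged 2444 ± 200.5 after 2 days off against 1481 ± 115 after 2 weeks on (log2 change 0.70, adjusted p = 0.00059). Pccb, a propionyl-CoA carboxylase subunit, averaged 1573 ± 181 after 2 days off against 945 ± 95.3 after 2 weeks on (log2 change 0.70, adjusted p = 0.000659), and Acadsb, the short/branched-chain acyl-CoA dehydrogenase, 1172 ± 127 after 2 days off against 632 ± 80.4 after 2 weeks on (log2 change 0.84, adjusted p = 0.00021).

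The other genes of the list that rose after 2 days off were Mccc1, Mccc2, Pcca and Mmut. After 6 weeks on, 8 of the 19 were below control and 0 above it, where 8.14% and 7.58% of all genes were, and the list's median was -0.47. With a common median 5 were below control and the list's median was -0.27. The 8 were Ppm1k, chosen for being low in this comparison, Bckdhb (-1.36, adjusted p = 1.58e-06), Mcee (-0.89, adjusted p = 0.000792), Ivd (-0.86, adjusted p = 0.000105), Dbt, Pccb, Aldh6a1 and Acadsb. Bckdha, Bckdk, Auh, Hibadh, Hibch and Acad8 passed the test in neither comparison.

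**Figure D4:**
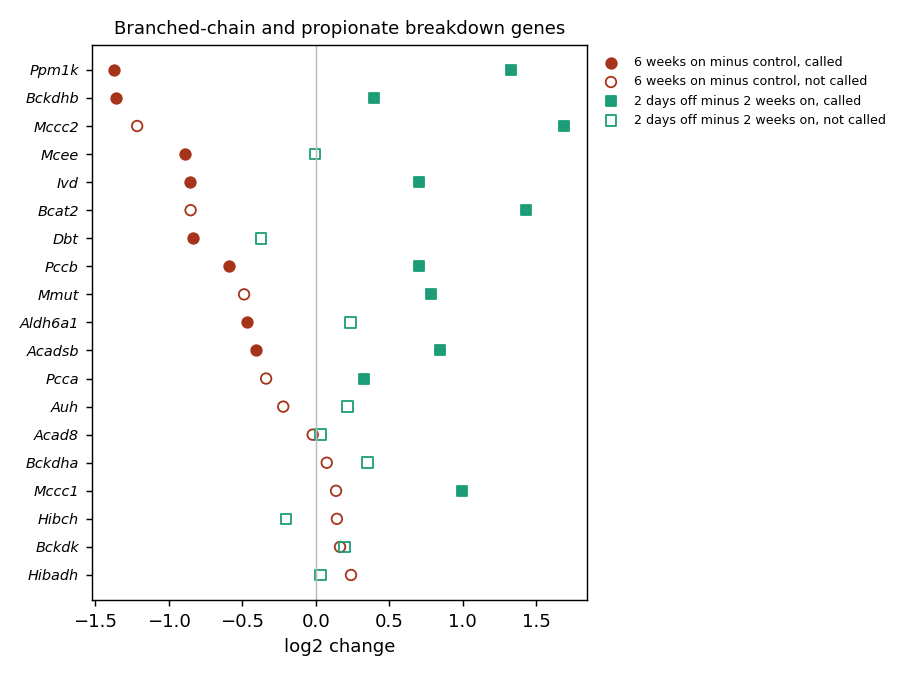
Each row is a gene of branched-chain amino acid and propionate breakdown on either chip; the horizontal axis is the fitted log2 change. Circles give 6 weeks on minus control and squares 2 days off minus 2 weeks on; filled symbols passed an adjusted p under 0.05. In all, 10 squares were filled and lay to the right of 0, and 8 circles were filled and lay to the left; Ppm1k was chosen for its low signal after 6 weeks on.

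Genes of lipid, sugar and small-molecule metabolism outside mitochondria made up 16 probe sets of 15 genes, and Agpat2 and Gpd1l rose after 2 days off. Agpat2, an acyltransferase of phospholipid and triglyceride synthesis, read 646, 491, 1403 and 538 after 2 days off, against 232, 279, 269 and 185 after 2 weeks on (log2 change 1.51 ± 0.27, standard error, adjusted p = 0.00482). Heart 3 after 2 days off was far above the other 3. Gpd1l, a relative of glycerol-3-phosphate dehydrogenase, gave 238, 201, 263 and 325 before induction, 167, 235, 221 and 147 after 2 weeks on, 481, 470.5, 368 and 452 after 2 days off, 181, 163 and 145 after 6 weeks on and 405, 273 and 513 after 2 weeks off. It lay above every control heart after 2 days off (log2 change 1.17 ± 0.19, standard error, adjusted p = 0.00195), and its other kept probe set differed from control by -0.38 after 6 weeks on. The 13 genes that did not pass were Slc9a2 (a sodium-proton exchanger), Cyb5d2, Fut11 (a fucosyltransferase, 2 probe sets), Aasdhppt, Adal, Cyp20a1, Aga (a lysosomal glycosidase), Abhd13, Alg10b, Serinc5, Pggt1b (a prenyltransferase subunit), Nceh1 (a cholesterol ester hydrolase) and Osbpl8 (a lipid-transfer protein). Their differences after 2 days off lay between -0.20 (Aga) and 1.10 (Pggt1b).

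Protein modification and turnover gave 8 genes, all with a positive change and a median of 0.39. Mysm1, a deubiquitinase of histone H2A, rose; it read 92.2, 117, 73.4 and 104 after 2 days off, against 22.0, 45.8, 29.7 and 27.7 after 2 weeks on (log2 change 1.34 ± 0.30, standard error, adjusted p = 0.0198). Senp7 (a SUMO protease), Arel1, Klhl8, Commd8, Dtx4, Commd3 and Rnf122 did not pass, with differences from 0.01 (Dtx4) to 0.90 (Arel1). Rnf122, a RING-finger protein, had 1 of the 10 largest differences between 6 weeks on and control (-2.08) but was dim: it read 156, 21.1, 72.7 and 70.5 before induction, 33.9, 32.4, 52.6 and 51.9 after 2 weeks on, 72.3, 61.6, 14.0 and 54.3 after 2 days off, 9.26, 10.5 and 9.80 after 6 weeks on and 82.1, 75.0 and 13.7 after 2 weeks off. Single hearts before induction and after 2 weeks off were close to those after 6 weeks on.

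Chromatin, transcription and RNA proteins were the 16 genes Wdr5b, Phf14, Zfp708, Ing5, Pnisr, Zfp664, Shld1, Cpsf6, Trmt11, Zfp383, Cecr2, Pan3, Ankle2, Zfp266, Mex3d and Bahcc1. Shld1, Ing5 and Mex3d rose after 2 days off. Shld1, a subunit of the shieldin complex that protects broken DNA ends, had the smallest adjusted p of all members. Its signals were 410.1, 474, 547 and 580.1 before induction, 182, 180.4, 212 and 182 after 2 weeks on, 672, 613, 579 and 679 after 2 days off, 224, 226 and 203 after 6 weeks on and 939, 466 and 679 after 2 weeks off. After 2 days off 3 of the 4 hearts exceeded every control heart and all 4 exceeded every heart after 2 weeks on (log2 change 1.69 ± 0.16, standard error, adjusted p = 1.25e-05).

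Ing5, a chromatin reader of acetyltransferase complexes, read 203, 164, 153 and 138 after 2 days off, against 66.0, 80.2, 43.6 and 57.9 after 2 weeks on (1.27, adjusted p = 0.0461), and Mex3d, an RNA-binding protein, read 169, 172, 169 and 150.1 after 2 days off, against 75.6, 114, 107 and 102 after 2 weeks on (0.68, adjusted p = 0.0383; log2 changes). Neither group pair overlapped. The 2 other kept Ing5 probe sets differed from control after 6 weeks on by 0.01 and -0.09, so the low signal was not shared by all probe sets of that gene. The other 13 genes differed by -0.57 (Phf14) to 0.85 (Trmt11).

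Immune and blood cell genes were few. Ifit1bl1, a member of the interferon-induced IFIT family, had the largest change of all members after 2 days off. It gave 273, 356, 322 and 429 before induction, 5.88, 69.0, 22.5 and 36.7 after 2 weeks on, 417, 172, 298 and 225 after 2 days off, 26.1, 80.4 and 98.3 after 6 weeks on and 372, 309 and 216 after 2 weeks off. Hearts after 2 weeks on and after 6 weeks on were both low, and the 4 hearts after 2 days off lay far above those after 2 weeks on (log2 change 2.80 ± 0.38, standard error, adjusted p = 0.000339). Ly6e, an interferon-inducible surface protein, read 2285, 1574, 1569 and 2130.2 before induction, 1623, 2182, 1846 and 2064 after 2 weeks on, 1959, 2313, 2202 and 2459 after 2 days off, 868, 935 and 647 after 6 weeks on and 2439, 1597 and 2299.7 after 2 weeks off. It was lowest after 6 weeks on and overlapped control after 2 weeks on, and a dimmer Ly6e probe set differed from control by 0.24 after 6 weeks on. Ly6e, Gimap5 (a lymphocyte GTPase), Abi3 and Sirpb1a did not pass after 2 days off, with differences of 0.21, -0.06, 0.31 and -0.94. Of 13 measured leukocyte marker genes 2 rose (Tyrobp and Lyz2) and 0 fell after 2 days off, where 5.23% of all genes rose and 5.37% fell. After quantile normalisation 1 rose, and with a common median 0 did. Their summed chip 430A signal was 9293 to 13335 after 2 days off against 8478 to 9095 after 2 weeks on. It was 7032 to 9749 after 6 weeks on, against 7449 to 10263 in control hearts, with Cd3e too dim to be kept. The part of these cells in the members' changes was not tested.

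Matrix and adhesion genes gave 8 members, of which Egflam rose after 2 days off. Egflam encodes pikachurin, an extracellular matrix protein that binds dystroglycan, and read 266, 239.6, 220.3 and 237 after 2 days off, against 115, 139, 95.0 and 149 after 2 weeks on (log2 change 0.90 ± 0.22, standard error, adjusted p = 0.0318). Sned1, a secreted matrix protein, had the second largest difference between 6 weeks on and control (-2.17) and read 318, 180.0, 373 and 245 before induction, 137, 208, 44.6 and 75.4 after 2 weeks on, 165, 177, 140.1 and 66.7 after 2 days off, 43.4, 95.5 and 19.2 after 6 weeks on and 395, 142 and 154 after 2 weeks off. After 2 days off its hearts overlapped those after 2 weeks on (0.33, adjusted p = 0.762). Ccbe1, which takes part in lymphatic vessel growth, differed by 1.15, with 2 of its 4 hearts after 2 weeks on below every heart after 6 weeks on. Cldn12, C1qtnf7, Pcdh19, Hmcn1 and Colgalt2 differed by -0.16 (Hmcn1) to 0.36 (C1qtnf7). Of 12 fibroblast markers 0 rose and 1, Postn, fell after 2 days off. Of these markers, 6 were above control and 0 below it after 6 weeks on (7.58% and 8.14% of all genes). After 2 weeks on 6 of them were above control and 1 below it, and after 2 weeks off 4 and 1. Their sum was 55732 to 68515 after 6 weeks on against 46285 to 58800.2 in control hearts.

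Microtubule, cilium and membrane traffic genes had a median change of -0.01 after 2 days off over 11 genes, and of 0.09 after scaling to a common median. Sun3, a nuclear envelope protein of mouse spermatids, was the member that rose; it read 143, 126, 90.9 and 142 before induction, 94.3, 12.0, 20.9 and 53.6 after 2 weeks on, 118, 106, 207 and 225 after 2 days off, 19.3, 25.3 and 17.1 after 6 weeks on and 105, 81.8 and 163 after 2 weeks off. Its hearts after 2 days off lay above those after 2 weeks on (log2 change 1.80 ± 0.37, standard error, adjusted p = 0.0118). Tppp, which promotes tubulin polymerisation, read 131, 102, 135 and 274 before induction, 43.5, 84.2, 92.3 and 113 after 2 weeks on, 103, 136, 139.7 and 137 after 2 days off, 18.1, 53.5 and 31.1 after 6 weeks on and 142, 105 and 83.8 after 2 weeks off. Of its 4 hearts after 2 days off, 3 lay above all hearts after 2 weeks on, and the change did not pass (0.62, adjusted p = 0.327). Wdr44 read 55.6, 38.5, 74.8 and 79.4 before induction, 10.2, 55.1, 37.7 and 57.5 after 2 weeks on, 7.35, 54.5, 29.9 and 59.0 after 2 days off, 6.03, 4.95 and 5.63 after 6 weeks on and 38.8, 43.3 and 28.7 after 2 weeks off. Its hearts after 6 weeks on were all under 24.5, and those after 2 days off overlapped those after 2 weeks on. The others were Kif13b (a kinesin), Tvp23b, Nbeal1, Ttc30a2 (intraflagellar transport), Vps13a (lipid transfer), Dync1li2 and Tctex1d2 (dynein chains) and Oscp1, with differences from -0.21 (Kif13b) to 0.51 (Vps13a). The 11 genes differed from control by -2.08 to -0.83 after 6 weeks on.

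**Figure D5:**
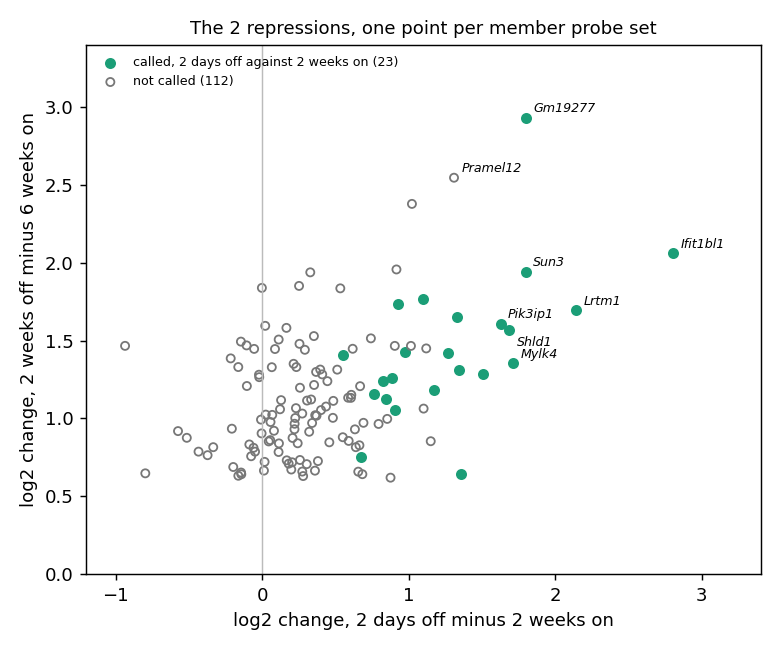
Each point is a member probe set: horizontal axis, fitted log2 change between 2 days off and 2 weeks on; vertical axis, fitted log2 change between 2 weeks off and 6 weeks on, which chose the members. Filled points are the 23 that rose after 2 days off; 112 did not pass. Ifit1bl1 and Lrtm1 had the largest changes after 2 days off and Gm19277 the largest after 2 weeks off.

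Non-coding and unnamed loci took 19 probe sets of 18 genes, and 1 rose after 2 days off. Gm19277 read 306, 167, 220.3 and 201 before induction, 138, 122, 132 and 173 after 2 weeks on, 655, 454, 484 and 504 after 2 days off, 65.3, 119 and 29.3 after 6 weeks on and 728, 501 and 477 after 2 weeks off. Both repressed groups lay above every control heart, after 2 days off by test against 2 weeks on (log2 change 1.80 ± 0.26, standard error, adjusted p = 0.000558). The others were Kcnq1ot1 (an imprinted antisense RNA of the Kcnq1 locus), Ccpg1os, Lockd, Mir1931, Gm6943, Gm4274, Gm15666, Gm26588, AI507597, 9230112J17Rik, 9430038I01Rik, 4933402E13Rik, C230034O21Rik, 1810014B01Rik (2 probe sets), 2810013P06Rik, 4930481A15Rik and 4930484H19Rik. Their differences after 2 days off ran from -0.80 (9430038I01Rik) to 1.12 (Ccpg1os). The Mir1931 name comes from the platform annotation, and this array does not measure mature miRNAs.

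The remaining 15 protein-coding genes had other roles, and Tcp11l2 and Smim22 rose after 2 days off. Tcp11l2, the third brightest member, read 2596, 2404, 2399 and 2639 after 2 days off, against 923, 1512, 1320.2 and 1419 after 2 weeks on (log2 change 0.97 ± 0.17, standard error, adjusted p = 0.00381), and Smim22, a small membrane protein, changed by 0.83, adjusted p = 0.0445. Ttc32, Lratd2, Fam199x, Mpped2, Pramel12, Lrrc75b, Ttc38, Spaca4, Tmtc2, Mblac2, Jpt2, Tmem64 and Cobll1 did not pass. Their differences ran from -0.21 (Spaca4) to 1.31 (Pramel12). Pramel12 was dim; it read 138, 159, 101 and 191 after 2 days off, against 63.8, 150.1, 23.1 and 24.3 after 2 weeks on, so 1 heart after 2 weeks on lay among those after 2 days off.

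At the edge of the size limit, the smaller of the 2 differences was -0.608 for Osbpl8, -0.604 for Mblac2 and -0.603 for Commd3, all members. Osbpl8 averaged 395 after 6 weeks on, against 608 in control hearts and 765 after 2 weeks off, Mblac2 109 against 204 and 172, and Commd3 655 against 1001 and 1092. Adgrl2, Fam149a and Klhdc1, just outside it, had -0.598, -0.598 and -0.597. Adgrl2 averaged 494 after 6 weeks on against 755 and 793, Fam149a 94.4 against 150.4 and 149, and Klhdc1 558 against 851 and 1269.5. After 6 weeks on, 22 members averaged under 24.5, the minimum that was set on the mean over all hearts. Other kept probe sets of the same genes on chip 430B numbered 129 in 74 genes. Of these, 92 were lower after 6 weeks on than in control hearts, where 54.9% of kept probe sets had a negative fitted change. Lower than both other groups were 75, of which 12 by the limit, and higher than both were 23. Among these 23 was a Ppip5k1 probe set that averaged 1792 after 6 weeks on and 1151 in control hearts (0.63). A Vps13a (0.69) and a Commd8 probe set (0.84 against control) were also among them. Probe sets of Tlk1 and Plekhm3, brighter than the members, differed from control by 0.23 and 0.21. Those of Pggt1b differed by 0.64, 0.76 and -0.48. For 11, every heart after 6 weeks on lay below both other groups (3.21% of the candidates, members included). A probe set that met both the limit and the separation would itself be a member. The median difference of the 129 from control was -0.29. Among genes whose hearts are listed above, other probe sets were also lower than control for Ppm1k (-1.70), Shld1 (-0.84), Ldhd (-0.83), Osgepl1 (-0.57), Nadk2 (-0.73, -0.59 and -0.34), Mysm1 (-1.24 and -0.25) and Pramel12 (-0.62 and -0.24). Against 2 weeks off, these probe sets differed after 6 weeks on by -0.25 (Ppm1k), -0.93 (Shld1), -0.55 (Ldhd) and -0.82 (Osgepl1). Those of Nadk2 differed by -1.10, -0.23 and 0.23, in the same order. Those of Mysm1 differed by -0.43 and -0.50 and those of Pramel12 by -0.65 and -0.57. The other probe set of Rnf122 differed from control by 0.49 and that of Wdr44 by -0.05, besides those of Pik3ip1, Lrtm1, Slc25a12, Ly6e and Ing5.

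Related pathways were counted over both chips. Among 22 autophagy genes 8 rose and 1 fell after 2 days off, with a median of 0.27 (5.23% and 5.37% over all genes). With a common median 5 rose and 1 fell, with a median of 0.16. The autophagy list was not low after 6 weeks on: 1 gene was above control and 2 below it, with a median of 0.18. Over all genes 7.58% were above control and 8.14% below it. Gabarapl1, a ubiquitin-like protein of the autophagosome, averaged 2638 ± 399.9 after 2 days off against 999 ± 189 after 2 weeks on (log2 change 1.36, adjusted p = 1.78e-05). Ulk1, the kinase that starts autophagy, averaged 1316 ± 119.9 after 2 days off against 742 ± 30.0 after 2 weeks on (log2 change 0.78, adjusted p = 0.000547). Among 21 FoxO and atrophy targets, Trim63 among them, 6 rose and 5 fell after 2 days off. After 6 weeks on, 3 of the 21 were above control and 2 below it, with a median of -0.005. The targets given with values here were among those that rose. Fbxo32 (atrogin-1), the other classical muscle ubiquitin ligase of atrophy, averaged 2002 ± 320.5 after 2 days off against 501 ± 34.8 after 2 weeks on (log2 change 1.88, adjusted p = 2.40e-05), and Klf15, a metabolic transcription factor, 449 ± 72.8 after 2 days off against 108 ± 47.0 after 2 weeks on (log2 change 1.69, adjusted p = 0.000133). Of 17 insulin and PI3-kinase genes, 3 rose and 2 fell after 2 days off, Akt1 being 1 of those that fell. The Akt1 probe set counted was the one that followed the transgene's switching, so its fall was part of the design. Irs1, the insulin receptor substrate, averaged 994 ± 127 after 2 days off against 450.0 ± 64.0 after 2 weeks on (log2 change 1.06, adjusted p = 5.91e-05). Tsc2, which holds back mTORC1, averaged 1589 ± 271 after 2 days off against 808 ± 85.2 after 2 weeks on (log2 change 0.93, adjusted p = 0.00301).

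Mitochondrial gene regulators gave 3 of 13 higher and 0 lower (2 and 0 with a common median or quantile normalisation), and Ppara, a fatty acid-sensing nuclear receptor, averaged 709 ± 127 after 2 days off against 294 ± 128 after 2 weeks on (log2 change 1.22, adjusted p = 0.0027). Fatty acid genes gave 3 of 25 higher and 8 lower, 6 and 6 after quantile normalisation and 1 and 8 with a common median. Adrenergic and cyclic nucleotide genes gave 4 of 20 higher and 0 lower, and 2 and 0 with a common median. Counts of higher and lower genes were for cardiac transcription factors 5 of 16 and 1 (4 and 1 with a common median), for repolarising and pacemaker channels 3 of 14 and 2, for calcium handling 2 of 16 and 2 (3 and 1 after quantile normalisation), for sarcomere and Z-disc genes 2 of 29 and 2 (6 and 1 after quantile normalisation), and for circadian clock genes 2 of 14 and 1 (1 and 1 under either scaling). In the sarcomere list Myom2, an M-band protein, averaged 3644 ± 1012 after 2 days off against 265 ± 155 after 2 weeks on (log2 change 3.67, adjusted p = 1.05e-06), which is a larger change than that of any member. Cmya5 rose by 0.72 and Pdlim5, a Z-disc protein, fell by 0.53 (log2).

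Single genes of these lists, all past the test after 2 days off, were the following. Kcnj11 and Kcnj5, inward rectifier potassium channels, rose by 1.16 each and the pacemaker channel Hcn2 by 0.68. Slc25a20, the mitochondrial acylcarnitine carrier, fell by 1.57 and Angptl4, an inhibitor of lipoprotein lipase, fell by 1.63, while Echs1, an enoyl-CoA hydratase, rose by 0.85. Perm1 rose by 0.85 and Esrrg, an estrogen-related receptor, by 0.54. The protein kinase A subunits Prkar1a and Prkaca rose by 0.73 and 0.44, and the phosphodiesterase Pde7a by 0.61. Cacna1c, the L-type calcium channel, rose by 0.67 and the sodium-calcium exchanger Slc8a1 by 0.83, while Asph fell by 0.49. Prox1 and Srf rose by 0.91 and 0.66 and Mef2c fell by 0.56. In the clock list Dbp fell by 1.30 and Arntl and Nr1d1 rose by 0.83 and 0.37. Sqstm1, an autophagy receptor, rose by 0.78.

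Few markers of the heart's cell types passed after 2 days off, where 5.23% of all genes rose and 5.37% fell. After 6 weeks on 7.58% of all genes were above control and 8.14% below it. Of 11 cardiomyocyte markers 0 passed after 2 days off in either direction, and after 6 weeks on 1 was above and 1 below control; their sum was 183084 to 264369 after 6 weeks on against 245459 to 321198 in control hearts. Of 14 endothelial markers 1 fell after 2 days off, and after 6 weeks on 4 were below control and 0 above, with a list median of -0.06. With a common median 2 were below and the list median was 0.14. Their sum was 11912 to 15494 after 6 weeks on against 15253 to 16858 in control hearts. Smooth muscle and pericyte markers gave 1 of 10 higher after 2 days off (0 with a common median) and 2 higher and 2 lower after 6 weeks on. Of the sparser lists, adipocyte markers gave 0 higher and 1 lower of 3 measured after 2 days off, and atrial (6 measured), erythroid (2) and nerve (3) markers gave 0 in either direction. The summed atrial markers were 6172 to 17068 after 6 weeks on and 2550 to 67715 in control hearts, so the control hearts alone differed widely. The part of cell makeup in the members' differences was not tested.

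Over 14285 probe sets of chip 430A, the one whose profile over the 18 hearts was most like the members' mean belonged to Hopx (Pearson r = 0.956), a homeodomain protein of cardiac muscle. Hopx read 9877, 10105, 9712 and 11434 before induction, 5265, 7147, 6678 and 6131 after 2 weeks on, 7878, 8658, 9274 and 9854 after 2 days off, 4115, 4199 and 3243 after 6 weeks on and 9114, 9028 and 10580.1 after 2 weeks off. Ubap2l (0.954), Bckdhb (0.949), Suclg2 (0.947, a succinyl-CoA synthetase subunit), Atp2a2 (0.941, the sarcoplasmic reticulum calcium pump), Epha4 (0.938), Yipf7 (0.937) and Abcc9 (0.934, the regulatory subunit of ATP-sensitive potassium channels) followed. The hearts share their groups and RNA between both chips, so these values describe likeness over 5 group levels. Each value belongs to a single probe set, and other probe sets of these genes, Atp2a2 included, can differ from it. Abcc9 read 1400.2, 1547, 1547 and 1164 before induction, 566, 758, 663 and 903 after 2 weeks on, 978, 850.3, 1025 and 1079.6 after 2 days off, 119.8, 222 and 159.5 after 6 weeks on and 924, 1178 and 1148 after 2 weeks off. Atp2a2 read 1469, 1424, 2046 and 1810.4 before induction, 920.5, 998, 959.7 and 907 after 2 weeks on, 1684, 1616, 1211 and 1498 after 2 days off, 729, 454 and 402 after 6 weeks on and 1610.3, 1469 and 1494 after 2 weeks off. Ubap2l averaged 562 after 6 weeks on against 1139.5 in control hearts, Bckdhb 616 against 1656, Suclg2 539 against 1276, Epha4 113 against 415 and Yipf7 1738 against 3997. In all 8 the mean after 6 weeks on was the lowest of the 5 groups, which their choice by likeness to the members largely fixed.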

How the data were processed

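Signals were measured on Affymetrix arrays 430A and 430B, 36 arrays of 18 hearts. The authors deposited linear intensity values from MAS5, per the submitters' processing notes (no version named there), scaled on chip 430B to a trimmed mean of 122.5. Probe sets were named through the platform annotation and RefSeq. Chip 430B probe sets with a mean under 24.5 (20% of that trimmed mean) were dropped, 12 was added, and log2 values of all 5 groups were fitted with limma 3.58.1 (R 4.3.3, trended eBayes, Benjamini-Hochberg, threshold 0.05). Chip 430A had a minimum of 100 and an offset of 50. The script was tested on simulated data.

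The members, gene lists and comparisons were chosen with earlier results of these data known, and the role groups after the members were seen. Every member was named. Signals of every heart were given for the 10 largest differences between 6 weeks on and control and for up to 10 of the smallest adjusted p-values after 2 days off, and for others chosen after their values were seen. Group values were given for 3 probe sets on each side of the size limit, for the 8 chip 430A profiles most alike, and for up to 3 genes a list. Promoters were RefSeq, GRCm38.p6. Replicates were separate mice, and their small number limits precision. Alternatives were other scalings, filters and offsets, no trend, an Actb covariate, a replicate block, only the groups compared, and leaving out hearts.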

Additional observations from a re-analysis of the deposited data

Results flagged for a closer look

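In 3 of 54 groups of 4 hearts tested over 18 members, a single heart lay far from the other 3 of its group, and chance alone marks about 1 in 20 such groups. Tppp had a lowest signal of 103.358 in a heart after 2 days off, a gap of 0.896 of the group's range. Shld1 had a highest signal of 211.811 in a heart after 2 weeks on (0.937 of the range), and Pik3ip1 a highest signal of 487.513 in a heart after 2 weeks on (0.853 of the range).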

How the results depend on the processing

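Between 17 and 29 members were higher after 2 days off under every alternative tried, against 23, and 0 were lower. The 10 members with the smallest adjusted p after 2 days off kept their sign and threshold in all 300 refits. Leaving out single hearts gave 17 to 27 members higher (17 without on2w/off2d replicate 1), a median of 0.24 to 0.41, and, over all probe sets, 129 to 373 higher and 70 to 179 lower. Over all probe sets, 275 higher became 169 without the trend, 174 with the Actb covariate and 489 with only both groups, and 139 lower became 91 with a common median, 79 with the covariate and 259 with only both groups. With a common median the members' median was 0.42 after 2 days off and 0.15 for 2 weeks off against control. The share of calls that were higher moved to 79.9% after 2 days off (66.4% as deposited), and for 6 weeks on against control to 73.0% (53.7%), for 2 weeks off against control to 68.1% (45.7%) and for 6 against 2 weeks on to 60.4% (42.9%). That scaling shifted the median of all probe sets by 0.12 for 6 weeks on against control.

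For 2 weeks on against control, 16 members lower became 6 without the control hearts with Xist signal and 11 to 19 without single hearts, with a median of -0.38 to -0.23. Over all probe sets 213 higher became 108 without the trend and 101 without those hearts (113 to 268 without single hearts), and 143 lower became 87 with a common median, 75 and 34 (59 to 224). For 2 weeks off against control, 137 higher became 49 without the trend, 45 without those hearts and 11 with only both groups (41 to 180 without single hearts), and 163 lower became 96 with a common median, 88, 31 and 18 (66 to 217). Gm19277 as the 1 member higher became 0 without the trend, without those hearts and with only both groups (0 to 4 without single hearts), and Mylk4 as the 1 lower became 0 in these and with a common median (0 to 1); the members' median was -0.07 to 0.06. The rule gave 87 members with a limit of 0.8, 232 with chip 430A symbols allowed and 140 to 249 without single hearts. With the replicate block, 22 members were higher after 2 days off; same-numbered hearts correlated at a median of -0.002 and 0 of 8 hearts of that comparison were most like their own number. The cause of these changes was not tested. Signals near background and 3 or 4 hearts a group limit what could be called.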

Other observations

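After 6 weeks on, 7 of 14 circadian clock genes were below control and 1 was above it, where 8.14% and 7.58% of all genes were, with a median of -0.76 (log2, limma over both chips). With a common median 5 were below control and 2 above it, with a median of -0.60. The list was also low in other groups. As deposited, 7 of the 14 were below control and 0 above it after 2 weeks on, with a median of -0.58. After 2 weeks off 6 were below control and 1 above it, with a median of -0.53. The low signals of this list were thus not limited to 6 weeks on, and their cause was not tested. Nr1d1, a repressor of the clock, averaged 587 ± 33.0 after 6 weeks on and 1099 ± 218 in control hearts (SD, n = 3 and 4). Nr1d2, its relative, averaged 1900.5 ± 293 after 6 weeks on and 3522 ± 482 in control hearts, and Cry2, a cryptochrome, 89.8 ± 28.0 and 330.4 ± 97.4.

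Of 12 fibroblast markers, 6 were above control after 6 weeks on and 0 below it, also after quantile normalisation and with a common median. As deposited, the list's median was 0.34 (log2). The list was also high in other groups. After 2 weeks on 6 were above control and 1 below it, with a median of 0.52. After 2 weeks off 4 were above control and 1 below it, with a median of 0.34. The 3 with the smallest adjusted p were Postn, Pi16 and Col1a2. Postn averaged 5085 ± 1407 after 6 weeks on and 695 ± 206 in control hearts, Pi16 1882 ± 207 and 716 ± 186, and Col1a2 7699.9 ± 1902 and 3302 ± 754.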
